A study of Mus musculus with 4 samples.

Results

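Imprinted genes are transcribed mainly from the copy inherited from 1 parent. A list of 40 mouse genes of this kind was followed through single-cell (sc) RNA-Seq of embryonic cortex, and the list names its members without using a measured value, although it was drawn up with earlier results of these data known. Of the 40 genes, 34 were among the 16600 genes of the deposited table. Rian, Snurf, Snhg14, Phlda2, Slc38a4 and Peg13 were not found under these symbols and were not analysed here. Cells were CD24+ CD45- cells from C57BL/6J cortex at embryonic day E18.5, from 2 Setd5+/+ (WT) and 2 Setd5+/- (Het) fetuses, 1 library each. CD24 is found on the surface of neurons, and CD45 on blood and immune cells. The Het animals carry 1 Setd5 GFP allele in every cell, so no cell type was targeted. The libraries are named WT3, WT6, Het5 and Het9 after the prefixes of their cell names, and values for the 4 libraries are given in this order throughout.

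At an imprinted domain, a stretch of DNA methylated in 1 parental germ line sets which copy is read, and long noncoding RNAs such as Meg3, Kcnq1ot1, H19 and Airn lie at several of these domains. Many of the protein-coding members act on growth, the exit from the cell cycle and neuronal differentiation. The brain keeps several of them active, and a few change the copy they use between cell types: Ube3a is maternal in neurons but read from both copies elsewhere, and Grb10 is maternal in most tissues but paternal in neurons. The table holds the total transcripts of each gene, and the parental copy cannot be read from it.

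Setd5 mRNA was 1.18 and 1.07 counts per 10000 UMIs in the WT libraries and 0.540 and 0.586 in the Het libraries, 49.9% of WT, so the labels of all 4 libraries held. A UMI is a molecular tag that counts each captured transcript once. The libraries held 1445 to 1954 cells with a median of 5398 to 5997 UMIs per cell. Each held fewer cells in the table used here than the study gives per fetus. Xist, the RNA of the silenced X chromosome, was 20.6 and 21.5 in the WT libraries and 0.152 and 0.310 in the Het libraries, and the Y-linked Eif2s3y was 0 and 0 against 0.573 and 0.670. Both WT libraries thus differed in sex chromosome transcripts from both Het libraries, so that genotype and sex cannot be told apart in any comparison given here. Between 66 and 71 cells of each library had a barcode that also occurred in another library, and of the 133 melanocyte-like and 107 immune-like cells, 127 and 79 had a barcode found in all 4 libraries. Hemoglobin transcripts, which come from red blood cells, summed to 4.37 to 12.9 in the Dlx neuroblast-like cells, lowest in Het5 and highest in Het9. With 2 libraries per genotype, the exact two-sided permutation test of a single value cannot go below p = 0.333, so calls rest on limma fitted across all genes, with Benjamini-Hochberg adjustment over all genes tested and a threshold of 0.05.

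Cells were assigned to types by sets of marker genes that held no member, and a type is named after its markers as "-like". Of 6562 cells, 5957 fell in 8 types with at least 20 cells in every library. These were the radial glia-like cells (313), cycling cells without Dlx markers (cycling pallial, 356), intermediate progenitor-like cells (1555, marked by Eomes and Neurog2), deep-layer excitatory neuron-like cells (909, with Bcl11b or Fezf2), other excitatory neuron-like cells (930), cycling cells with Dlx markers (cycling Dlx, 746), Dlx neuroblast-like cells (741) and interneuron-like cells (407). Dlx genes mark the GABAergic lineage. A gate may still mix several kinds of cell.

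Promoters of 4 members are shown because Meg3, Nnat, Nap1l5 and Snrpn were lower in both Het libraries and because the letters TGCCGC, the core of the motif known for the imprint-keeping protein ZFP57, occur in a promoter of each. Sequences are from RefSeq on GRCm38.p6 (mm10), run 5′ to 3′ on the strand of the gene from 250 bases before to 50 bases after its start, and capitals mark TGCCGC or its reverse complement GCGGCA. The Meg3 promoter lies on the plus strand at chr12:109540746-109541045, the Nnat promoter on the plus strand at chr2:157559828-157560127, the Nap1l5 promoter on the minus strand at chr6:58907077-58907376 and 1 of the 4 Snrpn promoters on the minus strand at chr7:60005150-60005449.
Meg3: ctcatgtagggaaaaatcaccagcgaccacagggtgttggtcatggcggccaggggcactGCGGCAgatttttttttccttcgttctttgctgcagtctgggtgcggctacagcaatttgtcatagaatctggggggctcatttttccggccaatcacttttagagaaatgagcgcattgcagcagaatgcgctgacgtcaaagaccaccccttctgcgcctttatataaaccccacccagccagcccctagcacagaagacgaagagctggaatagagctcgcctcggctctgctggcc
Nnat: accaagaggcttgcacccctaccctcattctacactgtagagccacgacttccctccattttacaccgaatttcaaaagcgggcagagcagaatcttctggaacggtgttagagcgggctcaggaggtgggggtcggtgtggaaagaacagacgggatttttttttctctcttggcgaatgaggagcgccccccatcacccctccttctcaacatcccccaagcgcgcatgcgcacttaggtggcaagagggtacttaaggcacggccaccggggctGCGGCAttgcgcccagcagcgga
Nap1l5: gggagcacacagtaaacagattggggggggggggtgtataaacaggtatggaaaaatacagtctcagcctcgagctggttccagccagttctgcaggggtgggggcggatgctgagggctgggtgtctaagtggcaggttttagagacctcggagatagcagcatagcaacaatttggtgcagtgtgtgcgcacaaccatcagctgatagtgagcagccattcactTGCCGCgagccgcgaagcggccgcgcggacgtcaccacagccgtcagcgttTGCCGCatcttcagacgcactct
Snrpn: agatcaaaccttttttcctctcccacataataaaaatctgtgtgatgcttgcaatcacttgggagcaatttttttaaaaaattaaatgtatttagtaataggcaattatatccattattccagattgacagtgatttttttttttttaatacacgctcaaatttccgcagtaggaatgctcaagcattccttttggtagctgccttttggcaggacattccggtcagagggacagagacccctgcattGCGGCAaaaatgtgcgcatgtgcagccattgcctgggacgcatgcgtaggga
Cdkn1c was not among the promoters of that table. In these windows the motif began 190 bases before the start of Meg3, 27 bases after that of Nnat, 24 bases before and 27 bases after that of Nap1l5, and 2 bases before that of Snrpn. Of the 40 members, 32 had a promoter in the RefSeq table, and 13 of these 32 held the motif in at least 1 promoter. Counted over promoters, it was found in 14 of 50 (28.0%), against 11.6% of all 32851 promoters of that length. The members' promoters are rich in CpG, with a median of 13 CpG against 7 over all promoters. Among the 12454 promoters with at least 13 CpG, 24.1% held the motif. Meg3, Nnat, Nap1l5 and Snrpn were picked for both traits. Ube3a, Peg3, Kcnq1ot1 and Asb4, also lower in both Het libraries over all cells, held no motif in a promoter, nor did the other Snrpn promoters. Copg2, higher in both Het libraries, held it. Whether the motif goes with the genotype difference was not tested. A match is a description of the letters and not of binding.

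Mean levels over the 4 libraries differed between cell types for many members, and the order given here is that among the 8 tested types. Meg3, Nnat, Nap1l5, Snrpn, Peg3, Blcap and Asb4 had their highest mean in cells with Dlx markers. H19, Plagl1, Mest and Grb10 were highest in radial glia-like cells. The means of Cdkn1c and Kcnq1ot1 were highest in intermediate progenitor-like cells, but their order differed between genotypes, as given with each gene. Ube3a, Usp29 and Impact were highest in deep-layer and Copg2 and Trappc9 in other excitatory neuron-like cells, and Zdbf2 in cycling pallial cells. Some of these ranks were near ties. Usp29 was 0.478 against 0.476 and Copg2 0.433 against 0.428 in interneuron-like cells, and Impact 0.148 against 0.1395 in other excitatory neuron-like cells. In gates too small to be tested, some means were higher: 89.4 for Nnat, 2.02 for Blcap and 2.69 for Kcnq1ot1 in Cajal-Retzius-like cells, 26.5 for Meg3 and 5.47 for Snrpn in striatal neuron-like cells, and 4.61 for Mest, 1.66 for H19 and 3.44 for Cdkn1c in glial progenitor-like cells. The heat map shows all 25 members tested.

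**Figure D1:**
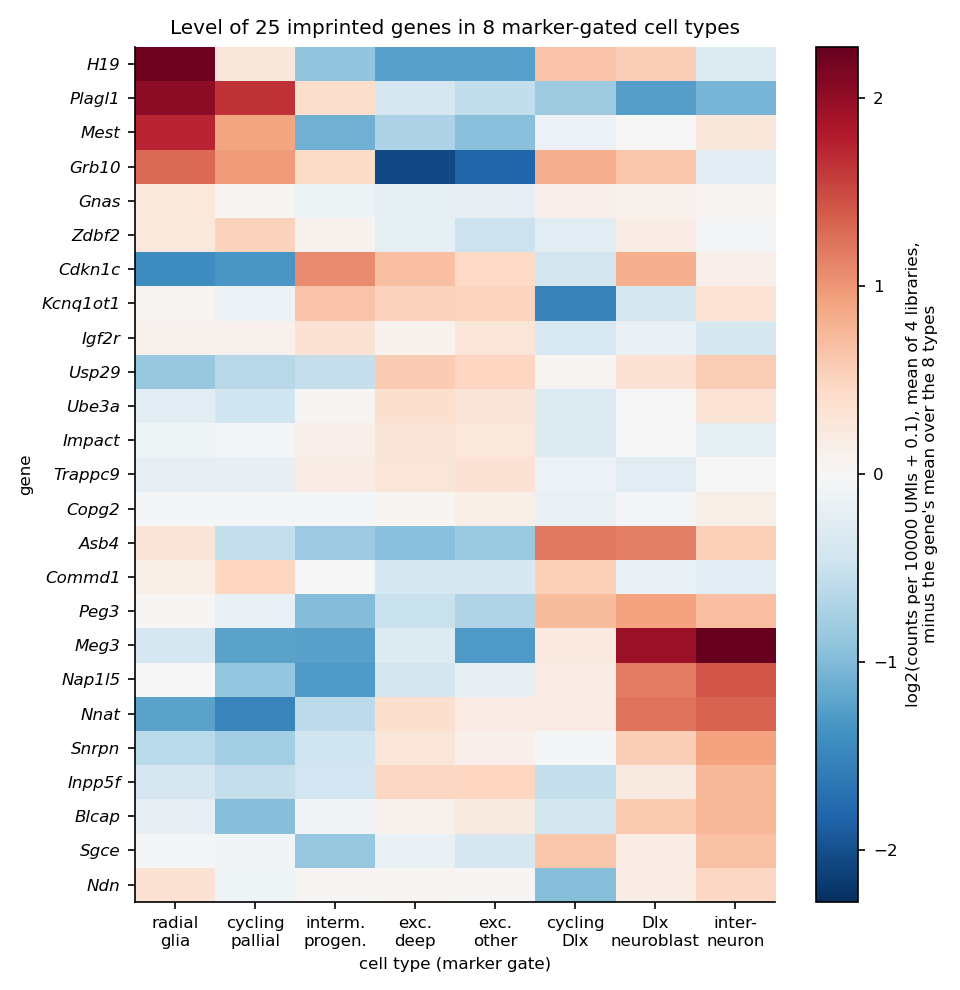
Levels of the 25 imprinted genes that passed the filter on low values (rows) in 8 marker-gated cell types (columns). Color is log2(mean counts per 10000 UMIs over the 4 libraries + 0.1), less the gene's mean of this value over the 8 types: H19, Plagl1, Mest and Grb10 are darkest red in radial glia-like cells, Meg3 and Nnat in interneuron-like and Dlx neuroblast-like cells.

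Differences between types were fitted with the library as a block, on log2(mean counts per 10000 + 0.1) and for the 8169 genes with a mean of at least 0.1. Of the members, 25 passed that filter. Between radial glia-like and excitatory neuron-like cells, 10 members were higher and 10 lower, where 29.6% of all genes were higher and 29.4% lower. Between intermediate progenitor-like and excitatory neuron-like cells, 4 members were higher and 8 lower, against 17.5% and 16.4% of all genes. Between Dlx lineage neuron-like cells (neuroblast-like, interneuron-like and striatal neuron-like together) and excitatory neuron-like cells, 13 members were higher and 4 lower, against 14.6% and 13.4% of all genes. Some members passed the filter through 1 side of a contrast alone and so had to differ. With at least 0.1 counts per 10000 asked of both sides, 7 of 21 were higher and 9 lower in radial glia-like cells, 3 of 21 and 7 in intermediate progenitor-like cells, and 10 of 19 and 3 in Dlx lineage neuron-like cells. The median difference of the 25 members was 0.26 in this last contrast, against −0.012 over all genes. Of 13 other imprinted genes tested, a list kept for comparison, 3 were higher and 2 lower there, and of 11 genes that set or keep imprints 3 were higher and 0 lower.

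Meg3, the maternal noncoding RNA of the Dlk1-Meg3 domain (chromosome 12: 109541001 to 109571726, plus strand), was high in Dlx lineage neuron-like cells and lower in the other tested types. Cycling Dlx cells were among the latter, with 3.43, 4.9, 2.94 and 3.75 counts per 10000 of Meg3. The level of Meg3 in Dlx lineage neuron-like cells was 16, 18.6, 11.5 and 15.5 counts per 10000, against 2.60, 1.89, 1.36 and 1.64 in excitatory neuron-like cells. The difference was 2.99 ± 0.15 on the log2 scale (estimate ± SE, adjusted p = 1.93e-18), or 7.94-fold, and no library of one kind overlapped the other. Striatal neuron-like cells, too few to be tested, held 24.9, 31.5, 19.7 and 30.1. Dlk1, the paternal Notch-like protein of the same domain, was low, with 0.0755, 0.10, 0.0465 and 0.0287 over all cells, and the noncoding Mirg gave 45 UMIs in all.

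Nnat, a paternal small membrane protein of differentiating neurons (chromosome 2: 157560078 to 157562522, plus strand), lies within the Blcap gene on the opposite strand. In Dlx lineage neuron-like cells it stood at 45.3, 44.1, 40.7 and 35.3 counts per 10000, against 21.4, 19.9, 21.3 and 21.2 in excitatory neuron-like cells and 7.57, 9.75, 6.79 and 5.56 in radial glia-like cells. It was 0.97 ± 0.08 higher in the first (adjusted p = 3.13e-12) and 1.52 ± 0.08 lower in the last (log2, −1.52, adjusted p = 7.22e-18), both against excitatory neuron-like cells. Cajal-Retzius-like cells, 9 to 17 per library, held 87.1, 81.8, 103 and 85.1. In melanocyte-like cells, which are no neurons and of which most shared their barcode across libraries, Nnat was 0.244, 0.220, 0 and 0 and Meg3 0.0811, 0.122, 0.0551 and 0. Blcap followed in a narrower range, from a mean of 0.304 in cycling pallial cells to 1.23 in interneuron-like cells among the 8 types and with 0.750, 0.807, 0.666 and 0.760 over all cells, and since the counting of strand is not given, reads of Nnat and Blcap may not be fully separate.

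Cdkn1c, a maternal inhibitor of cyclin-dependent kinases that stops the cell cycle (chromosome 7: 143458339 to 143461050, minus strand), was low in dividing cells and radial glia-like cells. In radial glia-like cells it was 0.474, 0.325, 0.633 and 0.205 counts per 10000, against 1.76, 2.16, 2.08 and 1.60 in excitatory neuron-like cells, a difference of −2.04 ± 0.28 (log2, adjusted p = 1.18e-07). In intermediate progenitor-like cells it was 2.15, 3.10, 2.84 and 2.91. This was the highest mean of the 8 types in Het (2.87), whereas in WT the mean in Dlx neuroblast-like cells (3.72) was above that in intermediate progenitor-like cells (2.63). Kcnq1ot1, the paternal noncoding RNA that silences Cdkn1c on its own copy, was 2.1, 2.03, 1.91 and 1.70 in the same cells, the highest mean of the 8 types in WT (2.06), while in Het deep-layer excitatory neuron-like and interneuron-like cells had higher means (1.89 and 1.82, against 1.81). It was lowest in cycling Dlx cells, with 0.403, 0.326, 0.386 and 0.293. In radial glia-like cells Kcnq1ot1 had a mean of 1.26 and was, like Cdkn1c, lower than in excitatory neuron-like cells (−0.44 ± 0.14, adjusted p = 0.005725). The difference between Cdkn1c and Kcnq1ot1 was not tested.

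H19, a maternal noncoding RNA expressed in embryonic tissues, was close to 0 in excitatory neuron-like cells (0.00505, 0.0196, 0 and 0.0130) and 1.24, 0.252, 0.694 and 2.17 in radial glia-like cells. The difference was 3.14 (log2), given with no test because H19 passed the filter on low values only through the types in which it was high. In radial glia-like cells the genotypes overlapped, with the lowest value in WT6 and the highest in Het9. Its neighbor Igf2, the paternal growth factor, gave 17 UMIs in the whole table, 8 of them in the 44 Cajal-Retzius-like cells. Grb10, an adaptor that restrains insulin and IGF receptor signaling, was 1.43, 1.97, 1.34 and 1.59 in radial glia-like cells and 0.0754, 0.0928, 0.0915 and 0.0711 in excitatory neuron-like cells. It was above the excitatory neuron-like cells by 3.19, 2.35 and 2.19 in the 3 contrasts (log2), also with no test, since it was under the filter in those cells. Plagl1, a paternal zinc finger factor, was 1.46, 1.30, 1.14 and 1.75 in radial glia-like cells. It was 2.50 ± 0.15 higher there than in excitatory neuron-like cells (adjusted p = 3.57e-16) and lay under the filter in Dlx lineage neuron-like cells. Mest, a paternal enzyme of the hydrolase fold family, was 2.88, 3.83, 3.90 and 2.94 in radial glia-like cells, 2.54 ± 0.12 above excitatory neuron-like cells (adjusted p = 1.16e-19). Its neighbor Copg2, a subunit of a vesicle coat, passed the test in 0 of the 3 contrasts.

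Around Snrpn and Ube3a on chromosome 7, the members did not share 1 pattern. Snrpn, a paternal splicing protein of neurons, had a mean of 4.0 in interneuron-like cells and 1.15 in cycling pallial cells, the highest and lowest of the 8 types, and rose in Dlx lineage neuron-like cells by 0.58 ± 0.09 (log2, adjusted p = 3.01e-06). Ube3a, a ubiquitin ligase, ranged among the 8 types from 1.70 in cycling pallial to 3.06 in deep-layer excitatory neuron-like cells. It was called in each of the 3 contrasts, always lower than in excitatory neuron-like cells. The log2 difference was −0.58 ± 0.07 in radial glia-like cells (adjusted p = 2.48e-08). It was −0.305 ± 0.07 in intermediate progenitor-like cells (adjusted p = 0.00125) and −0.22 ± 0.07 in Dlx lineage neuron-like cells (adjusted p = 0.0209). Ndn, which encodes the paternal growth suppressor necdin, was called in 0 of the 3 contrasts. Magel2, from the same paternal cluster, gave 50 UMIs.

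Peg3, a paternal zinc finger protein, had its highest mean of the 8 types in Dlx neuroblast-like cells (1.35) and was 1.33 ± 0.18 higher in Dlx lineage neuron-like cells (log2, adjusted p = 1.80e-07), while Usp29, which starts beside it on the other strand, was not called there (−0.09 ± 0.18, adjusted p = 0.754). Nap1l5, a paternal relative of nucleosome assembly proteins, rose by 1.52 ± 0.27 in the same contrast (adjusted p = 2.44e-05), and its gene overlaps Herc3 on the other strand. Sgce, a sarcoglycan, rose by 0.62 ± 0.14 (adjusted p = 0.000620). Asb4 was under the filter in excitatory neuron-like cells, with a difference of 1.80. In the other contrasts Usp29 was lower in radial glia-like (−1.415 ± 0.18, adjusted p = 1.87e-08) and intermediate progenitor-like cells (−1.05 ± 0.18, adjusted p = 1.06e-05). Peg3 was higher in radial glia-like cells (0.53 ± 0.18, adjusted p = 0.01035) and not called in intermediate progenitor-like cells (−0.40 ± 0.18, adjusted p = 0.0816). Gnas, the alpha subunit of the stimulatory G protein, ranged among the 8 types from 9.49 in deep-layer excitatory neuron-like cells to 12.9 in radial glia-like cells, with 10.3, 11.0, 10.6 and 10.2 over all cells, and its mean in Cajal-Retzius-like cells was 18.2. Commd1, a copper-handling protein, ranged from 0.820 to 1.69 among the 8 types, was highest in the cycling Dlx cells, and was 1.06, 1.21, 1.15 and 1.01 over all cells. Inpp5f, a phosphoinositide phosphatase, ranged from 0.361 to 1.04, with 0.587, 0.599, 0.586 and 0.642 over all cells, and was lower in radial glia-like and intermediate progenitor-like cells (−0.86 ± 0.14 and −0.92 ± 0.14, adjusted p = 4.37e-06 and 2.91e-06). The remaining tested members, Zdbf2, Trappc9, Impact and Igf2r, had type means between 0.0553 and 0.453. In all, 5 members in the table passed the filter nowhere: Mirg, Igf2, Magel2, Zim1 with 5 UMIs and Airn with 37. Peg10, Dlk1, Zrsr1 and Dcn passed it in some types only.

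The second question was whether the members differed between genotypes. Over all cells, 0 of 25 members were called by limma, against 7 of 8137 genes (0.086%), and 8 of the 25 had an unadjusted p under 0.05, against 4.34% of all genes. In 10 members both Het libraries lay below both WT libraries, and in 2 above, whereas 16.4% of all genes were separated downward and 15.5% upward. The 10 were Meg3, Nnat, Cdkn1c, Nap1l5, Snrpn, Peg3, Ube3a, Kcnq1ot1, Sgce and Asb4, and the 2 were H19 and Copg2. Asb4 was under the filter in Het, so it had to differ, and without it 9 of 24 members were separated downward and 7 had an unadjusted p under 0.05. The median log2 difference of the 25 was −0.11 (all genes, −0.002), with 19 below 0. Without 1 library, where 1 is set against 2, separation is easier: the count was 18 without WT3 (35.2% of all genes) and 16 without Het5 (39.3%). With types weighted alike it was 9 (18.3%).

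Over all cells Meg3 was 5.44, 7.27, 3.31 and 4.22 counts per 10000, a difference of −0.74 ± 0.15 (adjusted p = 0.441), and each WT value was above each Het value. Without WT3 it was called (−0.94, adjusted p = 0.0458), from a fit with 1 WT library, which is assumed to vary like the 2 Het libraries. Nap1l5 was 0.329, 0.368, 0.193 and 0.182, a difference of −0.64 ± 0.08 (adjusted p = 0.083), and without Het5, with 1 Het library left, it was called (adjusted p = 0.0453). Nap1l5 is named here after its values were seen. Cdkn1c was 2.03, 2.13, 1.67 and 1.52 (−0.37 ± 0.07, adjusted p = 0.323). Nnat was 22.1, 23.0, 19.6 and 19 (−0.23 ± 0.05, adjusted p = 0.528). Cdkn1c and Nnat were singled out by the study on these same samples, so their direction is not independent evidence. These values also carry the share of each type in a library. Dlx neuroblast-like cells numbered 164, 271, 164 and 142, and interneuron-like cells 83, 160, 83 and 81. The libraries held 1453, 1954, 1710 and 1445 cells, so both types had a smaller share in both Het libraries. With the 8 types given equal weight, an alternative chosen after the data were seen, Cdkn1c was called (−0.51 ± 0.08, adjusted p = 0.0377), and Meg3 moved to −0.34 (adjusted p = 0.714).

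Within types, 4 calls were made among the members, each lower in Het. Over all genes these fits made 55 calls. Without Het5, with 1 Het library left, there were 17 calls among members and 307 over all genes. In Dlx neuroblast-like cells 2 of 25 members fell, where 0.091% of genes were called. In interneuron-like cells 1 of 23 fell (0.0521% of genes called) and in other excitatory neuron-like cells 1 of 23 (0.155%). In the other 5 types 0 members were called, where 0.0645% of genes were called in deep-layer excitatory neuron-like, 0.103% in intermediate progenitor-like, 0.0604% in radial glia-like, 0.0742% in cycling pallial and 0.107% in cycling Dlx cells. In the same order, 0 of 23, 3 of 23, 3 of 26, 3 of 23 and 4 of 24 members had an unadjusted p under 0.05, against 4.77%, 4.73%, 4.46%, 4.4% and 4.12% of all genes. Members under the filter in 1 genotype are among these, and the counts were 2 of 22 in intermediate progenitor-like cells without Zrsr1 and 3 of 22 in cycling Dlx cells without Plagl1 and Peg10. Neither of the comparison lists had a call by genotype in any type or over all cells.

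Cdkn1c fell in Dlx neuroblast-like cells from 4.24 and 3.20 counts per 10000 in WT to 1.14 and 0.611 in Het. The drop was 2.01 on the log2 scale (−2.01 ± 0.21, adjusted p = 0.000319), or 4.26-fold between the genotype means, and rested on 1030 UMIs in 741 cells. Without WT3 it was −1.81 and not called (adjusted p = 0.0552). In interneuron-like cells Cdkn1c fell from 1.56 and 2.51 to 0.668 and 0.739 (−1.38 ± 0.23, adjusted p = 0.0135), or 2.89-fold, on 334 UMIs. This call was lost without WT6 (−1.05, adjusted p = 0.430) and with stricter gates (−0.92, adjusted p = 0.792). In cycling Dlx cells it was 1.09, 1.09, 0.759 and 0.698, separated but not called (−0.52 ± 0.13, adjusted p = 0.671). In the excitatory and intermediate progenitor-like cells the genotypes overlapped: 1.93, 2.22, 2.32 and 1.80 in the deep-layer type, 1.61, 2.09, 1.86 and 1.44 in the other, and 2.15, 3.10, 2.84 and 2.91 in the progenitors. In radial glia-like and cycling pallial cells they overlapped as well. A test of the difference between types itself, added after the calls were seen and made on within-library differences between Dlx neuroblast-like and other excitatory neuron-like cells, gave −1.86 ± 0.31 (unadjusted p = 0.000624), which did not pass adjustment over 8324 genes (adjusted p = 0.891). In the 3 pairs of types compared this way limma called 0 genes, with 5 of 28, 4 of 27 and 0 of 25 members at an unadjusted p under 0.05, against 5.42%, 4.93% and 5.3% of all genes.

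**Figure D2:**
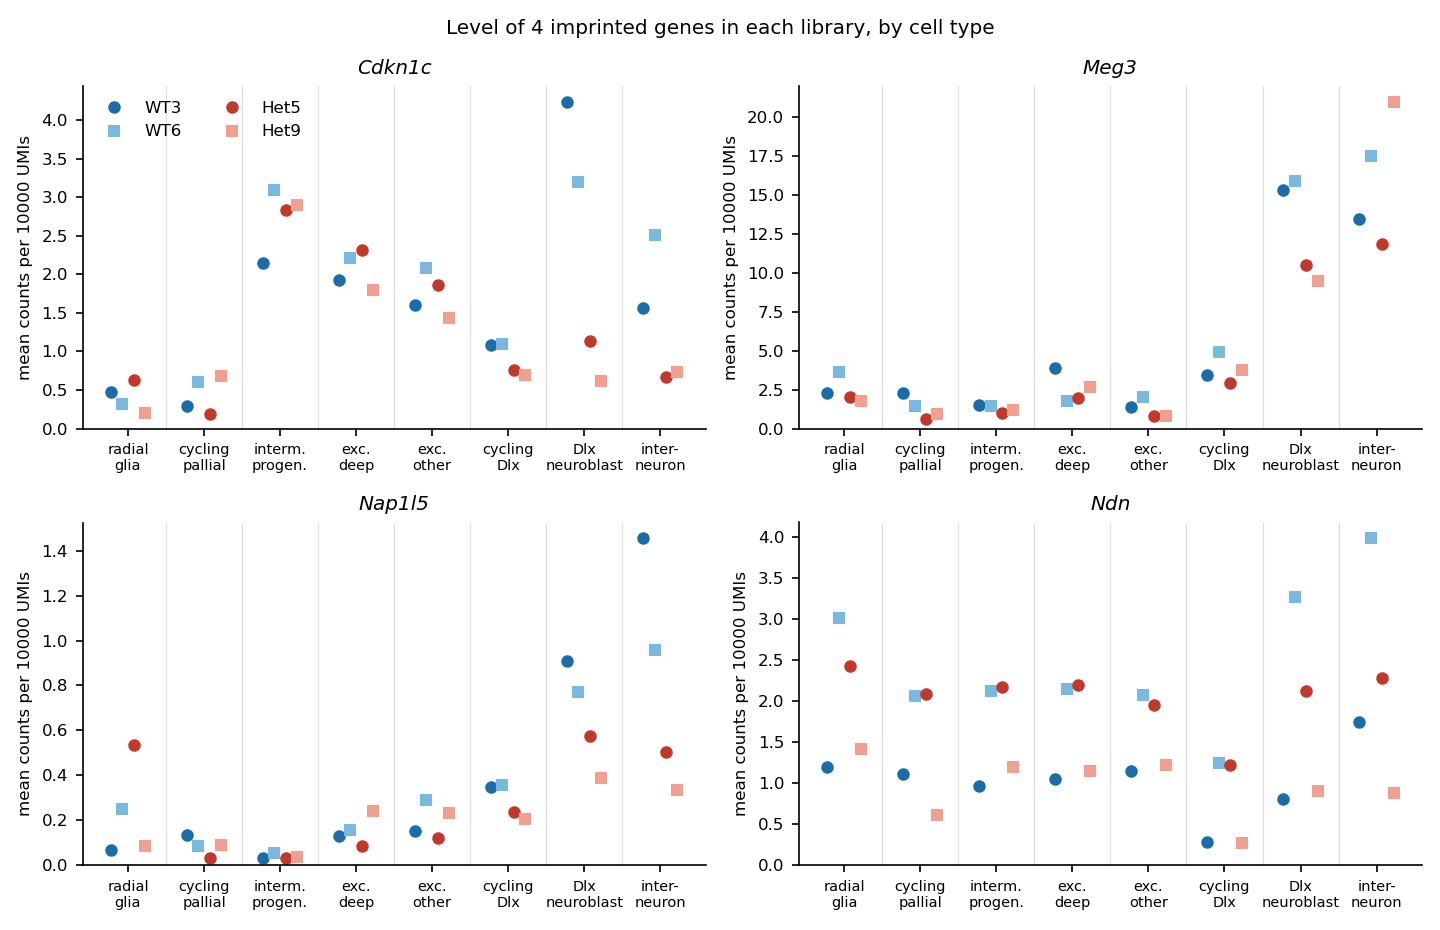
Mean counts per 10000 UMIs (vertical axes, from 0) of 4 imprinted genes in each library and cell type, with WT libraries in blue and Het libraries in red. Both Het libraries lie under both WT libraries for Cdkn1c and Nap1l5 in the 3 Dlx types, while both WT6 and Het5 lie above WT3 and Het9 for Ndn in 8 of 8 types.

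Inside the Dlx neuroblast gate, mean Cdkn1c in WT was higher in cells with transcripts of Zic1 or Zic4, transcription factors of septal, striatal and olfactory bulb precursors. This split was made after the values were seen. Zic1 and Zic4 were themselves lower in the gate in Het without being called (−1.67 ± 0.37 and −1.94 ± 0.45, adjusted p = 0.192 and 0.211). Which cells are set apart therefore moved with genotype, and a value without the Zic cells is no test of the genotype difference at equal cell makeup. Cells with at least 1 UMI of either gene numbered 48, 76, 37 and 6. In them Cdkn1c was 10.4 and 9.78 in WT, and 1.84 and 1.16 in Het. In the other 116, 195, 127 and 136 cells it was 1.71, 0.628, 0.932 and 0.587, and the genotypes overlapped. Both numbers thus moved with the Cdkn1c result: Het9 had fewer Zic cells, and the Zic cells of both Het libraries held less Cdkn1c, although in Het9 that value rests on 6 cells. Without the Zic cells the difference was −0.45 ± 0.32 (adjusted p = 0.998), with that limit.

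**Figure D3:**
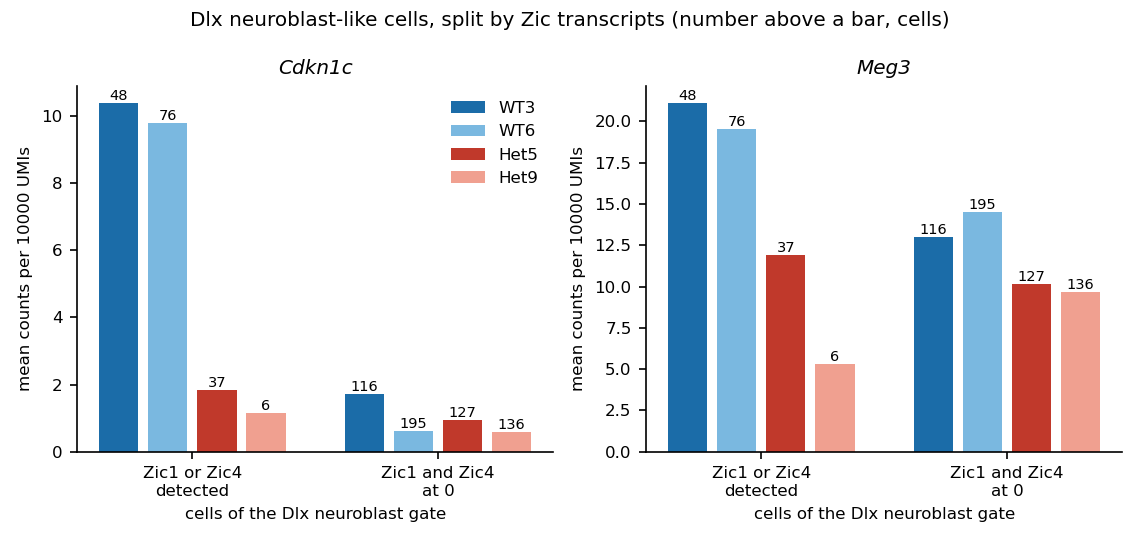
Mean counts per 10000 UMIs of Cdkn1c (left) and Meg3 (right) in the Dlx neuroblast gate, 1 bar per library, split by whether a cell held Zic1 or Zic4 transcripts, with the number of cells above each bar. Cdkn1c is near 10 in the Zic cells of WT3 and WT6 and under 2 in each other bar.

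Meg3 fell in Dlx neuroblast-like cells from 15.4 and 15.9 to 10.5 and 9.49 (−0.64 ± 0.09, adjusted p = 0.00975), or 1.56-fold. With differences of nearly the same size it was not called without WT3 (−0.67, adjusted p = 0.0675), without WT6 (−0.61, adjusted p = 0.214) or in clusters in place of gates (−0.59, adjusted p = 0.366). The Zic split gave 21.1, 19.5, 11.9 and 5.29 in Zic cells and 13, 14.5, 10.1 and 9.67 in the rest, separated in both, and without the Zic cells the difference was −0.47 ± 0.11 (adjusted p = 0.704), with the same limit. In other excitatory neuron-like cells Meg3 fell from 1.39 and 2.03 to 0.825 and 0.797 (−0.97 ± 0.14, adjusted p = 0.000661), on 484 UMIs in 930 cells. In the cells of that gate with no UMI of the Dlx and striatal markers it was 1.37, 2.24, 0.899 and 0.783, and the genotypes were separated. This call was lost, with the same direction, in thinned cells (−0.59, adjusted p = 0.616), in clusters in place of gates (−0.17, adjusted p = 0.995) and with stricter gates (−0.43, adjusted p = 0.301). The cluster that stood for this gate drew 50.95% of its cells from it and also held 531 deep-layer excitatory neuron-like cells, so its cell mix differed. Meg3 was separated downward but not called in cycling pallial cells (2.28, 1.46, 0.625 and 0.943, adjusted p = 0.0518, called in 6 of 12 alternatives), radial glia-like cells (2.31, 3.66, 2.05 and 1.78) and intermediate progenitor-like cells (1.54, 1.46, 1.0 and 1.22, called in 2 of 12 alternatives, clusters and stricter gates). In deep-layer excitatory neuron-like cells the genotypes overlapped, with 3.90, 1.79, 1.95 and 2.68 (adjusted p = 0.959) and, in the cells without those markers, 3.06, 1.79, 1.59 and 2.93. They overlapped in cycling Dlx cells too, with 3.43, 4.9, 2.94 and 3.75. In interneuron-like cells it was 13.5, 17.6, 11.8 and 21, with no separation (0.03 ± 0.18, adjusted p = 0.999).

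Apart from Cdkn1c and Meg3, 0 members were called in Dlx neuroblast-like cells. Of the 25 members tested there, these included, 22 had a log2 difference below 0, Copg2, H19 and Impact were above 0 (0.40, 0.27 and 0.16), and 13 had both Het libraries below both WT libraries, where 18.1% of all genes did. The median was −0.24, against −0.005 over all genes. Dlk1 and Impact were under the filter in 1 genotype, and without these 21 of 23 were below 0 and 12 of 23 were separated downward. Kcnq1ot1 was 0.987, 1.32, 0.717 and 0.512 (−0.81 ± 0.19, adjusted p = 0.238), Peg3 1.88, 1.53, 1.24 and 0.750 (−0.75 ± 0.20, adjusted p = 0.335), and Nnat 47.7, 44.8, 39.1 and 32.3 (−0.38 ± 0.10, adjusted p = 0.294). Without the Zic cells 15 of 24 members were below 0, 6 were separated downward (16.5% of all genes), and the median was −0.17 (−0.008 over all genes), where the cells left out differed by genotype, from 76 in WT6 to 6 in Het9. In the other types the members below 0 were 16 of 24 in cycling Dlx, 15 of 23 in cycling pallial, 14 of 23 in interneuron-like, 12 of 23 in deep-layer and 11 of 23 in other excitatory neuron-like, 11 of 23 in intermediate progenitor-like and 13 of 26 in radial glia-like cells. The difference between types in this count was not tested. Nap1l5 was again low in interneuron-like cells of Het, with 1.46, 0.956, 0.504 and 0.335 (−1.32 ± 0.27, adjusted p = 0.0962).

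**Figure D4:**
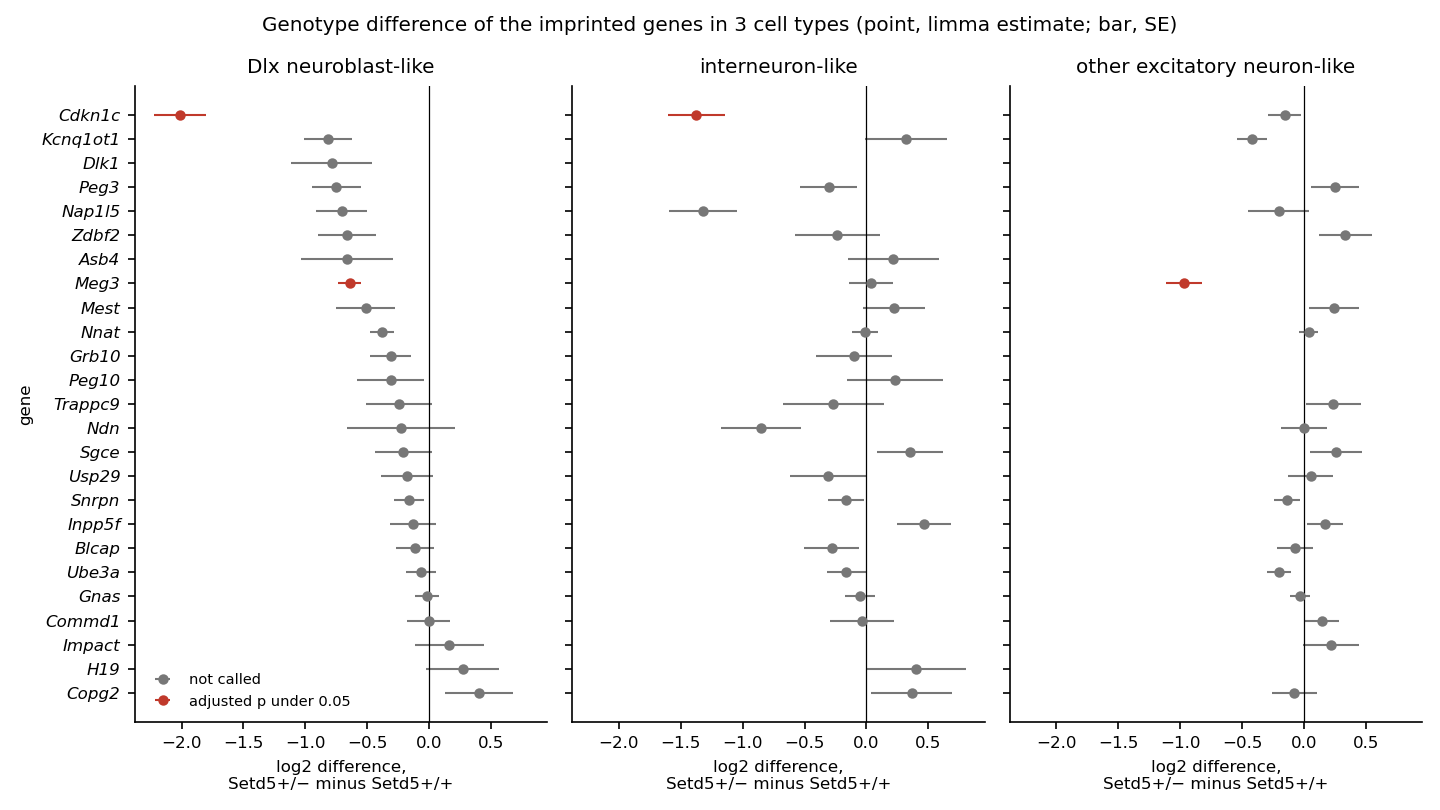
Difference between Setd5+/- and Setd5+/+ libraries (horizontal axes, log2, with the limma estimate as a point and its SE as a bar) for the imprinted genes tested in Dlx neuroblast-like cells, in 3 cell types. Red points passed an adjusted p of 0.05: Cdkn1c and Meg3 on the left, Cdkn1c in the middle and Meg3 on the right, while 22 of 25 points lie below 0 on the left.

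Hemoglobin sums were highest in Het9 in interneuron-like and other excitatory neuron-like cells too (15.0 and 12.2). In Dlx neuroblast-like cells the sums of the immune, melanocyte and vascular marker sets were at most 0.0997 counts per 10000 in any library. Of these sets, 3 of 10 immune genes (Ptprc among them), 4 of 6 melanocyte genes and 6 of 9 vascular genes were at 0. Choroid plexus genes summed to 0.142, 0.158, 0.0356 and 0.0102, lower in both Het libraries, with 2 of 4 (Folr1 and Clic6) at 0. The part of these cells in the results was not tested.

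Ndn stood apart from the other members, since its spread lay between libraries of 1 genotype. Over all cells it was 0.967, 2.48, 1.99 and 0.998 counts per 10000. WT6 exceeded WT3 in 8 of 8 types, by 1.81-fold to 4.42-fold, and Het5 exceeded Het9 in 8 of 8 types, by 1.59-fold to 4.50-fold. In cycling Dlx cells, for example, Ndn was 0.281, 1.24, 1.21 and 0.270. The genotypes overlapped in all 8 types, and the SD over libraries of its level over all cells was 0.751, against a mean of 1.61. Over all cells its neighbors differed less among libraries. Snrpn was 2.29, 2.37, 1.99 and 2.01, with both Het libraries below both WT libraries in 5 of 8 types. Ube3a was 2.56, 2.46, 2.43 and 2.34, separated in this way in 4 types.

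The last question was whether the members varied together from cell to cell. Pearson's r was taken over 5957 cells on the log values, centered on cell type and library, for 300 pairs of 25 members. The cells of a pair share library, depth and the mix of cells inside each gate, so r is given as a description with no test. The median r was 0.0099, against 0.0025 over all pairs of 8024 genes. An r of at least 0.1 was reached by 17 pairs (5.67%), against 0.224% of all pairs, and after thinning each cell to 3000 UMIs by 3 pairs (1.0%), against 0.056%. These 3 were Nnat with Snrpn (0.164, thinned 0.134), Nnat with Meg3 (0.152, thinned 0.131) and Nnat with Blcap (0.128, thinned 0.103). Nnat was in 9 of the 17 pairs. The lowest r were those of Nnat with Grb10 (−0.156), H19 (−0.125) and Plagl1 (−0.115), which had their highest mean in radial glia-like cells.

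Neighbors at 1 domain did not all vary together. Kcnq1ot1 and Cdkn1c reached 0.119 (thinned 0.0776) and Peg3 and Usp29 0.118 (thinned 0.0706), whereas Mest and Copg2 were at 0.0004, Sgce and Asb4 at 0.0287, Ube3a and Snrpn at 0.043 and Snrpn and Ndn at 0.0538. In Dlx neuroblast-like cells alone the median r over the 300 pairs was 0.037, and 74 pairs (24.7%) reached 0.1, against 2.12% of all gene pairs there. The share over all pairs was larger in the gates with fewest cells. The member pairs at 0.1 or above numbered 51 (17.0%) in radial glia-like, 47 (15.7%) in interneuron-like and 38 (12.7%) in cycling pallial cells, against 6.26%, 4.33% and 5.59% of all pairs. In the other 4 types, the cycling Dlx, intermediate progenitor-like, deep-layer and other excitatory neuron-like cells, they numbered 16, 7, 4 and 0 (5.33%, 2.33%, 1.33% and 0%), against 1.47%, 0.448%, 0.629% and 0.576%. In Dlx neuroblast-like cells r was 0.375 for Nnat and Snrpn, 0.349 for Nnat and Meg3, 0.348 for Kcnq1ot1 and Cdkn1c and 0.304 for Peg3 and Usp29, with −0.352 for Nnat and H19. For Ube3a and Snrpn it was 0.0245, for Mest and Copg2 0.0554, for Sgce and Asb4 0.0754 and for Snrpn and Ndn 0.173. In the other 7 types the first 4 of these pairs lay between 0.0006 and 0.233 for Nnat and Snrpn, 0.0656 and 0.202 for Nnat and Meg3, 0.012 and 0.139 for Kcnq1ot1 and Cdkn1c, and 0.0027 and 0.183 for Peg3 and Usp29, with the top values in cycling pallial, cycling pallial, intermediate progenitor-like and cycling Dlx cells. These 4 pairs were picked for a high r in Dlx neuroblast-like cells. Nnat and Cdkn1c went the other way, with 0.389 in cycling pallial and 0.361 in radial glia-like cells, against 0.233 in Dlx neuroblast-like cells. The Dlx neuroblast gate mixed Zic and other cells, as described above, and their part in these values was not tested.

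**Figure D5:**
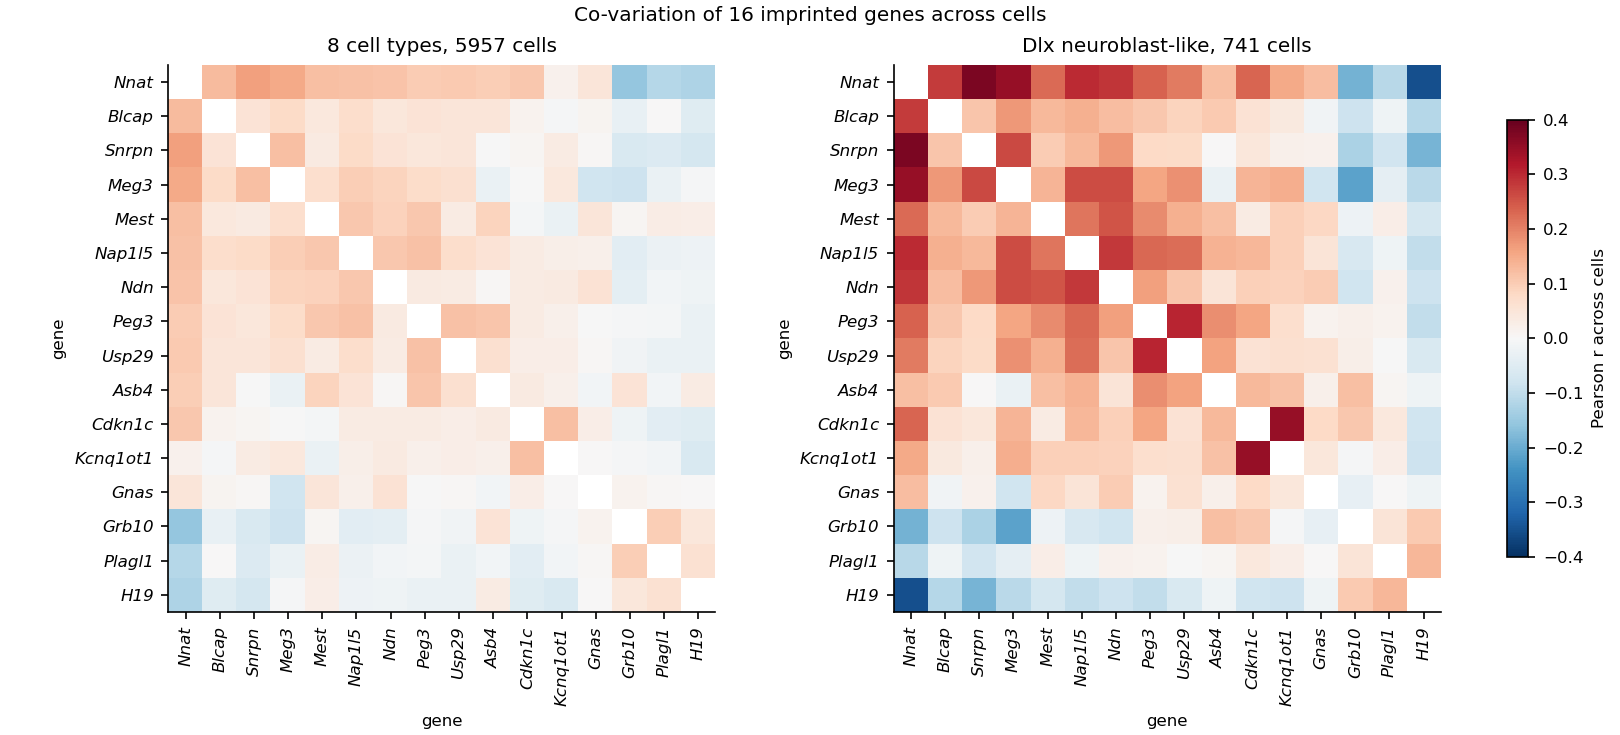
Pearson's r across cells (color, −0.4 to 0.4) for pairs of 16 imprinted genes, over the 8 cell types (left, 5957 cells) and in Dlx neuroblast-like cells alone (right, 741 cells), on log values centered on cell type and library. The row of Nnat is red up to Cdkn1c and blue for Grb10, Plagl1 and H19, and the squares of Cdkn1c with Kcnq1ot1 and of Peg3 with Usp29 stand out on the right.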

How the data were processed

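Single-cell libraries of CD24+ CD45- cells from E18.5 cortex were made with the 10x 3′ v2 kit. Per the submitters' processing notes, Cell Ranger 2.1, Seurat 2.3.0 and the mm10 genome were used. For the gene annotation, strand setting and limits on cells, what was used is not stated in the sources read here. Libraries were matched to a genotype by the prefix of their cell names, and not to a numbered replicate. The table deposited by the authors holds the natural log of 1 + UMIs per 10000, from which whole UMIs were recovered for 100% of 14848520 values above 0 (tolerance 0.001). The 4 libraries held 8205330 to 11742956 UMIs and 1258 to 14996 per cell.

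Cells were gated on recovered UMIs of marker genes, taken in a fixed order, no doublet caller was run, and genes at a mean of at least 0.1 were tested with limma 3.58.1 (R 4.3.3, trend, Benjamini-Hochberg adjustment) on log2(mean counts per 10000 + 0.1), which understates the change of low genes. Each library is 1 fetus, so p-values rest on 2 against 2, or on 1 against 2 with a library left out. Fits were tested on simulated data. Python 3.11.15, numpy 2.4.6, pandas 2.3.3 and scanpy 1.11.5 were used otherwise. Positions are from GENCODE on GRCm38.

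Members called in any genotype fit, with a mean of at least 1 in all cells or in a tested type, or singled out by the study (Cdkn1c, Nnat) were given library by library, and the rest by range and count. Some others were named after their values were seen, Nap1l5 and those in the type contrasts among them. The members and lists were chosen with earlier results of these data known. Alternatives were other pseudocounts, no filter, UMI sums, thinned cells, cells with shared barcodes left out, clusters, stricter gates, each genotype alone and each library left out.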

Additional observations from a re-analysis of the deposited data

How the results depend on the processing

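No paired analysis was possible because the library names carry no replicate number shared by the genotypes. The 8 genotype differences recomputed under the alternatives (Cdkn1c, Meg3, Nap1l5 and Nnat over all cells, and the 4 calls within types) kept their sign in each; the other differences printed were not recomputed. Over all cells the count of imprinted genes called by genotype was 0, and it was 0 to 2 with 1 library left out (1 without WT3, 2 without Het5, where calls over all genes rose from 7 to 13 and 41), 1 with cells thinned to 3000 UMIs (Meg3, −0.81, adjusted p = 0.0259) and 1 with types weighted alike. Within types the count of 4 was 4 to 17 with 1 library left out (17 without Het5), 7 with UMI sums (calls over all genes rose from 55 to 307 and 81) and 3 with thinned cells, clusters or stricter gates. The count of members with both Het libraries below both WT libraries was 10, 9 with types weighted alike, and 11 to 18 with 1 library left out, where 1 library is set against 2 and 29.1% to 39.3% of all genes were separated, against 16.4%. A genotype left with 1 library was assumed to vary like the other. Contrasts between types gave 14 to 22, 8 to 14 and 12 to 20 calls over their 14 alternatives each. The cause of these changes was not tested. Depth limits the low members: 5 in the table had at most 50 UMIs in 6562 cells, and Cdkn1c in the Zic cells of Het9 rests on 6 cells.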

Other observations

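Several gates held too few cells to be tested, and their members are given as values. In the 44 Cajal-Retzius-like cells, early-born neurons of the cortical surface, Gnas was 20.1, 19.4, 19.1 and 14.3 counts per 10000 in WT3, WT6, Het5 and Het9, and Kcnq1ot1 was 3.14, 2.38, 4.01 and 1.24, while H19 was 0 in each library. In the 52 glial progenitor-like cells, marked by Olig1, Olig2 and Pdgfra, Mest was 4.21, 5.37, 5.85 and 3.02 and H19 was 0.888, 0.623, 2.06 and 3.06. Cdkn1c in these cells was 5.06, 1.67, 5.48 and 1.54, on 134 UMIs in 17 cells. In the 146 striatal neuron-like cells Mest was 2.11, 1.52, 2.36 and 2.43 and Cdkn1c 2.46, 1.22, 1.5 and 0.498. With 6 to 68 cells per library in these 2 gates and 9 to 17 Cajal-Retzius-like cells, no comparison of genotypes was made.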
